A study of Homo sapiens with 12 samples.

Results

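CH223191, a synthetic antagonist of the aryl hydrocarbon receptor (AHR), was compared with its DMSO vehicle in DLD1 cells 1 h after addition, across all expressed genes. The comparison takes 6 of the 12 libraries of the study, chosen by their titles and treatment labels: 3 labelled CH (10 µM CH223191, 1 h) and 3 labelled DMSO (vehicle, 1 h). The study measured polyadenylated RNA of cultured DLD1 cells, an established colon cancer line, in 4 groups of 3 libraries each. The other groups received the AHR agonists TCDD, a dioxin, or kynurenine, a tryptophan metabolite, each at 10 µM for 1 h. All 4 groups are the same line with no genetic change named in the labels. Nothing in the labels tells whether replicate libraries are separate cultures. The p-values therefore measure only how these libraries vary, and that spread may be technical. The labels' protocol names the DMSO and agonist incubations but not CH223191, so the group of the CH libraries rests on their titles and treatment labels alone. Libraries are written CH 1 to CH 3 and DMSO 1 to DMSO 3.

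AHR is a transcription factor that waits in the cytosol bound to chaperones, enters the nucleus on binding a ligand, pairs with ARNT and switches on genes such as the CYP1 monooxygenases. In colonic epithelium it senses dietary and microbial compounds. An antagonist occupies the ligand pocket without activating the receptor. The genes most often read out after such a compound are AHR targets. A second programme, driven by the stress factor ATF4 and its amino acid synthesis, transport and tRNA charging genes, also stood out in these libraries, so members of both were set aside as reference lists and the account below is mainly about the other genes. The groups described below hold 2 of these reference genes, CDKN1A among G1 genes and BMF in the BCL2 family, neither of them called.

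The 6 libraries held 21397703 to 27783424 reads on named genes and detected 16752 to 17099 genes with at least 1 read. Colonic epithelial markers summed to 9220 to 9740 CPM (a gene's reads divided by the scaled read total of its library, in the usual count-per-mega-read unit) in DMSO and to 9420 to 9670 CPM with CH223191, carried by keratins and EPCAM. The intestinal factor CDX1 and the adhesion molecule CEACAM5 had 6 and 17 reads over the 6 libraries. Fibroblast markers summed to at most 1.3 CPM in any library and endothelial markers to at most 7.32 CPM, and DCN, CD3D, KDR, TEK and EMCN had 0 reads in all 6 libraries. Immune markers summed to 9.22 to 16.6 CPM in DMSO and 7.45 to 15.2 CPM with CH223191. MS4A1, a B cell surface gene, had 42 reads in CH 2 and 0 in the other 5 libraries. Its part in the results was not tested, and the count of called genes without CH 2 is given with the main count.

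The response was wide and shallow. Of 13619 genes with enough reads to be tested, 4470 (32.8%) passed an adjusted p under 0.05, the threshold for a call throughout. Of these, 2171 were higher with CH223191 (15.9% of genes tested) and 2299 lower (16.9%). Setting the 87 tested members of the reference lists aside left 4398 called genes, 2119 higher and 2279 lower. The median rise among called genes was 0.27 on the log2 scale, or 1.2-fold, and the median fall was -0.19, or 1.14-fold. Without CH 2 the count was 3510, with 1739 higher and 1771 lower. The split depended on how libraries were scaled: 48.6% of called genes were higher with TMM scaling, 58.9% with library totals alone and 58.1% with upper-quartile factors, which shifted the median gene by 0.03 and 0.02 on the log2 scale.

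Rises reached further than falls. A called change of at least 1.5-fold was found for 342 genes upward (2.51% of genes tested) and 102 downward (0.749%). At 2-fold or more there were 98 rises and 29 falls, and at 4-fold or more 12 rises and 3 falls. Most of the response lay below these limits, since 39.5% of called genes changed by at least 1.2-fold. A test of change beyond 1.2-fold, in place of any change, called 519 genes, 355 higher and 164 lower. The 3 CH libraries did not overlap the 3 DMSO libraries for 5906 genes (43.4% of genes tested). Among called genes this held for 4202 (94%), so a lack of overlap adds little to a call.

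**Figure D1:**
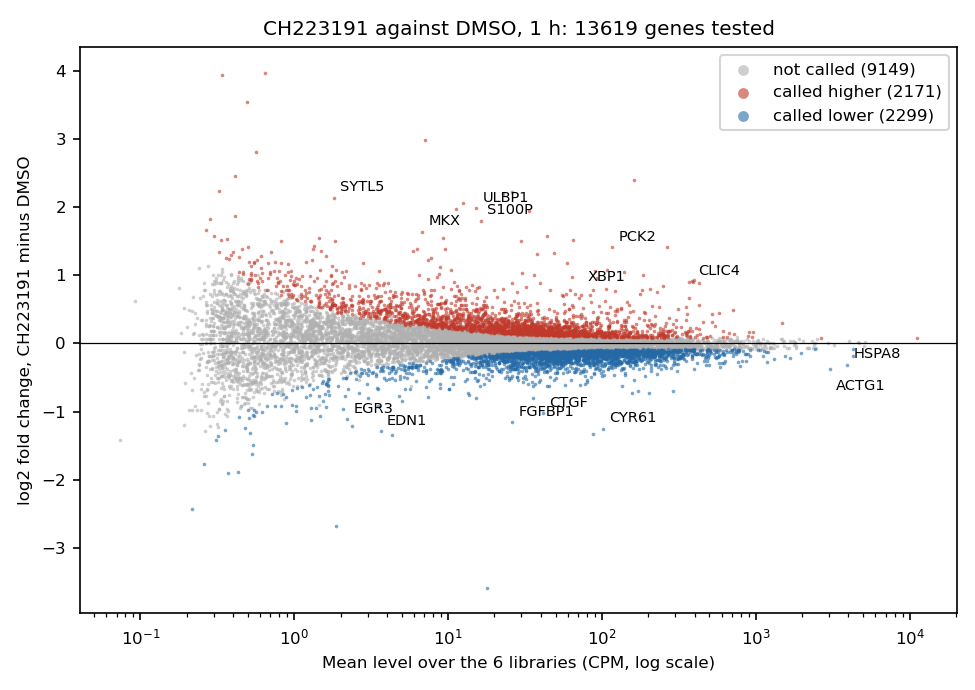
Each point is 1 of 13619 genes, with its mean level over the 6 libraries in CPM on a log axis and its log2 fold change, CH223191 minus DMSO, on the vertical axis; red points were called higher, blue called lower and grey not called. Called changes among genes with many reads are small and lean downward, and the larger called changes lie mostly upward at low and middle levels.

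Direction changed with the number of reads a gene drew. CPM is not corrected for gene length, so these classes rank genes by reads and not by transcripts per cell. Among 1866 genes at 1 to 5 CPM, 14.8% were called higher and 4.88% lower, and among 2561 genes at 5 to 20 CPM the shares were 23.3% and 8.43%. Among 5292 genes at 20 to 100 CPM they were 17.6% and 22.3%, and among 2401 genes at 100 CPM or more they were 12% and 32.7%. The median log2 fold change of all genes in these 4 classes was 0.11, 0.06, -0.01 and -0.04. These shares and medians are with TMM scaling and were not recomputed under the others. Library totals alone and upper-quartile factors moved the median gene by 0.03 and 0.02, and the genes called lower from 2299 to 1814 and 1859. The shares called lower may therefore be smaller under those scalings. Genes called lower held 29.2% of the scaled DMSO read total and those called higher 11.9%. Summed over called genes, rises came to 21525 CPM, or 2.15% of the scaled total, and falls to -35169 CPM, or -3.52%. The TMM factors were 0.988 to 1 in DMSO and 1.01 to 1.02 with CH223191, so CPM summed over all genes is lower in the CH libraries. The excess of falls over rises therefore depends on the scaling. A gain in some genes also lowers the share of reads left for others, and absolute RNA per cell was not measured. Fewer molecules per cell and fewer cells carrying them cannot be told apart in these bulk libraries.

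**Figure D2:**
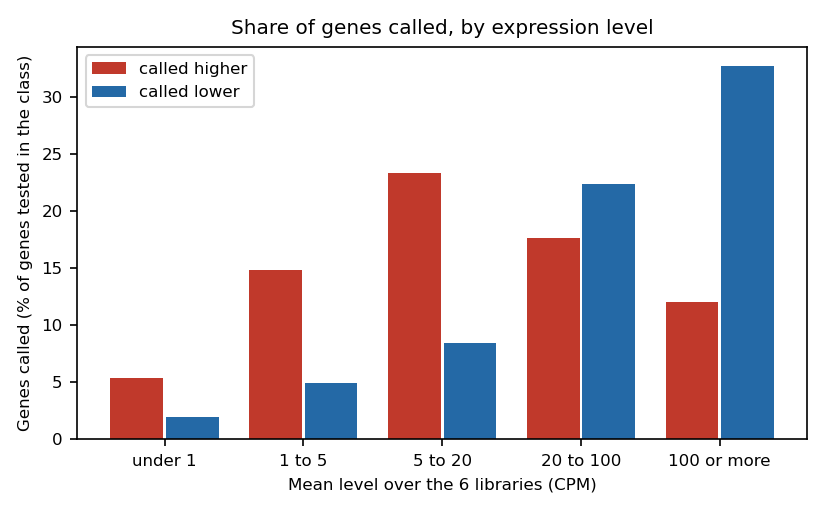
Bars give the share of genes called higher (red) and lower (blue), with TMM scaling, in 5 classes of mean level over the 6 libraries, in CPM. The share called lower climbs from 1.93% under 1 CPM to 32.7% at 100 CPM or more, while the share called higher peaks at 23.3% between 5 and 20 CPM.

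Gene structure moved with the response as well, using the 13285 of the 13619 genes matched to a gene model. From the fifth of genes with the lowest transcript GC content to the fifth with the highest, the share called higher went from 18.6% to 12.5% and the share called lower from 15.6% to 19.5%. Genes spanning 100 kb or more were called higher in 19.2% and lower in 12.5%. Genes under 5 kb were called higher in 13% and lower in 14.3%, yet they passed 1.5-fold more often, in 3.87% upward and 1.82% downward. Genes called at least 1.5-fold lower had a median span of 19.2 kb and 5 exons, against 31.6 kb and 9 exons over all genes tested. Noncoding genes made up 15.3% of them, 12.9% of genes called at least 1.5-fold higher and 6.49% of all tested. These 3 sets also differed in read level, with medians of 1.67, 2.8 and 26.9 CPM. Structure and read level were not separated here.

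The 16 largest rises outside the reference lists, where the mean over the 6 libraries reached 1 CPM, had log2 fold changes of 1.33 to 2.14. SYTL5, a synaptotagmin-like protein that binds Rab GTPases on secretory vesicles (chromosome X, 38006553 to 38128819, hg38), read 0.343, 0.796 and 0.881 CPM in DMSO and 3.06, 3.25 and 2.62 CPM with CH223191. By the rule that chose these genes, all CH libraries lay above all DMSO libraries. For SYTL5 the log2 fold change was 2.14 ± 0.229 SE (adjusted p = 3.1e-09). ULBP1, a stress-induced surface ligand of the NKG2D receptor of natural killer and T cells (chromosome 6, 149963943 to 149973715), read 5.91, 6.58 and 6.02 CPM in DMSO and 24, 25.5 and 23.7 CPM with CH223191. Its log2 fold change was 1.98 ± 0.0845 SE (adjusted p = 2.8e-20). S100P, a small calcium-binding protein (chromosome 4, 6693878 to 6697170), read 7.17, 6.8 and 7.75 CPM in DMSO and 23.4, 23.1 and 29.4 CPM with CH223191, a log2 fold change of 1.8 with CH 3 the highest. MKX, a homeobox factor known from tendon, read 2.98, 3.22 and 3.63 CPM in DMSO and 10, 9.85 and 10.9 CPM with CH223191 (log2 fold change 1.64). For these 4 genes the gap between the groups was wider than the range within either.

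Several others handle lipids or metabolites. ATP8B2, a phospholipid flippase of the P4-ATPase family, read 4.84, 4.85 and 4.59 CPM in DMSO and 13.6, 15.1 and 12.8 CPM with CH223191 (log2 fold change 1.54). ABCG1, which exports cholesterol to lipoprotein particles, had a log2 fold change of 1.5 (from 0.959 to 2.74 CPM on average), and OSBPL6, an oxysterol-binding relative, 1.38. PCK2, the mitochondrial phosphoenolpyruvate carboxykinase, read 65.9, 62.1 and 64.4 CPM in DMSO and 174, 169 and 169 CPM with CH223191 (log2 fold change 1.41, adjusted p = 7.1e-26). FAM129A, also named NIBAN1 and known as a stress-response gene, rose from 14.8, 16.9 and 15.4 CPM to 46.6, 44.7 and 41.8 CPM (log2 fold change 1.5). PCK2 and FAM129A are described elsewhere as ATF4-dependent but were not on the reference list. The other genes outside the reference lists were not checked for this, so more of them may belong to that programme. The other large rises were in the long noncoding RNA LINC01133 (1.55), PAQR8, a membrane progestin receptor (1.43), SMAD6, an inhibitor of BMP signalling (1.38), KIF21B, a kinesin (1.38), TMEM154 (1.36), C6orf222 (1.36) and PRSS2, a trypsinogen (1.33). PRSS2 has near-identical copies, and its reads may include theirs. Had the reference lists been kept, 9 of the 16 largest rises would have been theirs.

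**Figure D3:**
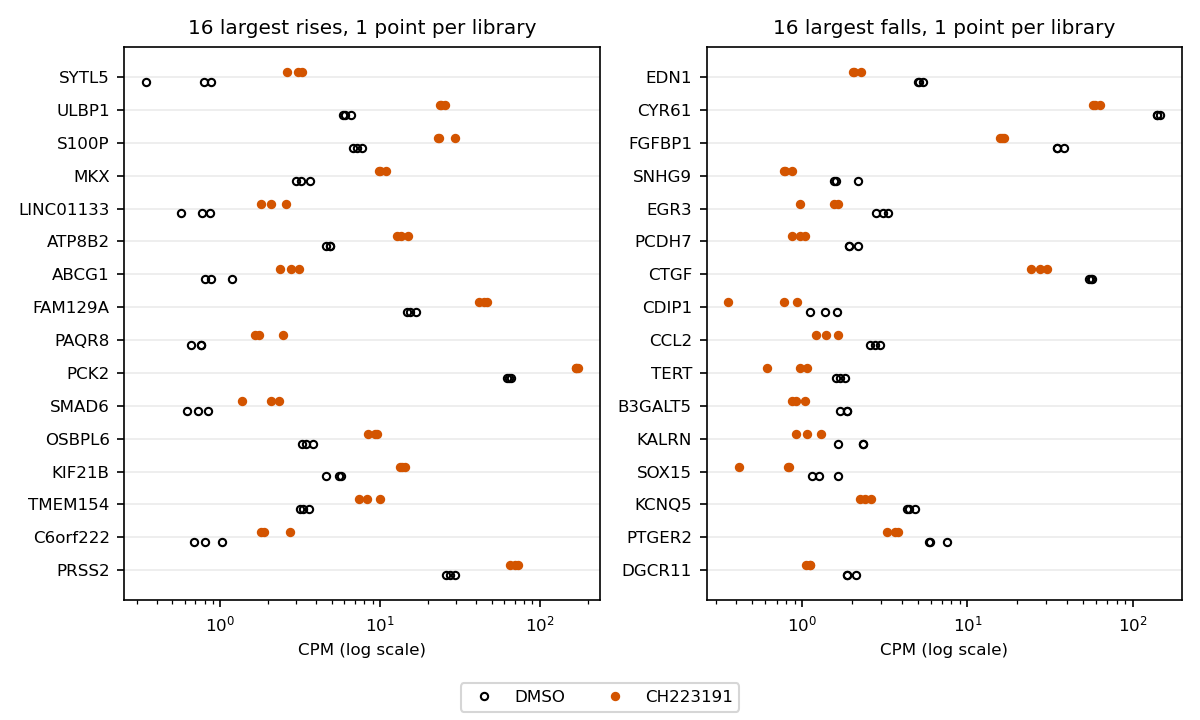
Open points are the 3 DMSO libraries and filled points the 3 CH223191 libraries, in CPM on a log axis, for the 16 largest called rises (left) and falls (right) outside the reference lists. By the rule that chose them, no gene's groups overlap; SYTL5 and ULBP1 head the rises, and EDN1 and CYR61 the falls.

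The largest falls outside the reference lists, by the same limit on the mean, reached log2 fold changes of -0.84 to -1.28. EDN1, the precursor of the vasoconstrictor endothelin (chromosome 6, 12290361 to 12297194), read 5.11, 5.03 and 5.36 CPM in DMSO and 2.05, 2.28 and 2.02 CPM with CH223191, a log2 fold change of -1.28 ± 0.144 SE (adjusted p = 1e-08). CYR61, a matricellular protein now named CCN1 (chromosome 1, 85580761 to 85584589), read 147, 140 and 140 CPM in DMSO and 63, 57.4 and 58.9 CPM with CH223191. Its log2 fold change was -1.25 ± 0.0417 SE (adjusted p = 2.5e-23), and every CH library lay below every DMSO library. FGFBP1, a secreted carrier of fibroblast growth factors, read 34.8, 34.9 and 38.3 CPM in DMSO and 16.3, 15.8 and 16.7 CPM with CH223191 (-1.15). CTGF, the second matricellular gene of this family, now CCN2, read 54.7, 56.7 and 55.9 CPM in DMSO and 30.3, 27.4 and 24.4 CPM with CH223191 (-1.02, adjusted p = 2.5e-17). In none of these 4 genes did the groups overlap, as the rule that chose them required.

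The remaining large falls were of mixed kinds. They included EGR3, an immediate-early zinc finger factor (-1.11), PCDH7, a protocadherin (-1.06), CCL2, a monocyte chemokine (-0.96), TERT, the catalytic subunit of telomerase (-0.95), B3GALT5, a galactosyltransferase (-0.94), KALRN, a guanine nucleotide exchange factor (-0.93), KCNQ5, a potassium channel (-0.91), and PTGER2, a prostaglandin E2 receptor (-0.84). The noncoding genes SNHG9 (-1.12) and DGCR11 (-0.84) were also among them. CDIP1 (-0.99) and SOX15 (-0.92) passed with all libraries, but not without CH 2 for CDIP1 (adjusted p = 0.068) or without DMSO 1 for SOX15 (adjusted p = 0.052). Of the 16 largest falls, 4 would have been reference genes had those been kept.

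Counted in reads and not in fold, a different set of genes carried the change. CLIC4, a chloride intracellular channel protein, read 266, 274 and 263 CPM in DMSO and 500, 513 and 497 CPM with CH223191 (log2 fold change 0.91 ± 0.0334 SE, adjusted p = 3.2e-22). XBP1, a transcription factor of the secretory pathway, read 143, 152 and 153 CPM in DMSO and 260, 261 and 261 CPM with CH223191 (0.8 ± 0.0336 SE, adjusted p = 2e-20). RHOBTB3, which takes part in vesicle transport, rose from 492, 509 and 499 CPM to 602, 590 and 592 CPM (0.25). HSPA9, the mitochondrial HSP70 chaperone (0.17), and the ribosomal protein gene RPL12 (0.17) were the other large gains in reads, beside PCK2. The elongation factor EEF1A1 (0.08) and the poly(A)-binding protein PABPC1 (0.08) gained most reads or nearly so with small changes, and both calls ended with some libraries left out. EEF1A1 did not pass without CH 2, CH 3, DMSO 2 or DMSO 3 (highest adjusted p = 0.1), and PABPC1 without CH 1, CH 2, DMSO 2 or DMSO 3 (highest adjusted p = 0.18).

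Losses in reads were led by chaperone, actin and membrane genes. HSPA8, the constitutive cytosolic HSP70, read 4200, 4350 and 4540 CPM in DMSO and 3590, 3610 and 3370 CPM with CH223191 (-0.31 ± 0.0346 SE, adjusted p = 9.5e-09). ACTG1, cytoplasmic gamma-actin, read 3560, 3340 and 3380 CPM in DMSO and 2660, 2710 and 2560 CPM with CH223191 (-0.37 ± 0.0339 SE, adjusted p = 5.9e-11). ACTB, beta-actin, read 4760, 4620 and 4410 CPM in DMSO and 4120, 4090 and 3890 CPM with CH223191 (-0.19). In each of these 3 genes the CH libraries lay below the DMSO libraries, as the rule that chose them required. FAT1, an atypical cadherin (-0.22), TFRC, the transferrin receptor (-0.27), and SLC12A2, a sodium, potassium and chloride cotransporter (-0.18), fell too. HSP90AB1 (-0.08, adjusted p = 0.033), the cytosolic HSP90 that also holds AHR, lost its call with any 1 library other than DMSO 1 left out (highest adjusted p = 0.11).

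Gene groups were described by how many tested members were called in each direction, read against the 15.9% of all tested genes called higher and the 16.9% called lower, and by the median log2 fold change, which was 0.00 over all genes. No test of a group was made. Both shares vary with read level, as given above, and the shares by level used below are those with TMM scaling. Members of a group share regulators and are not independent of each other.

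**Figure D4:**
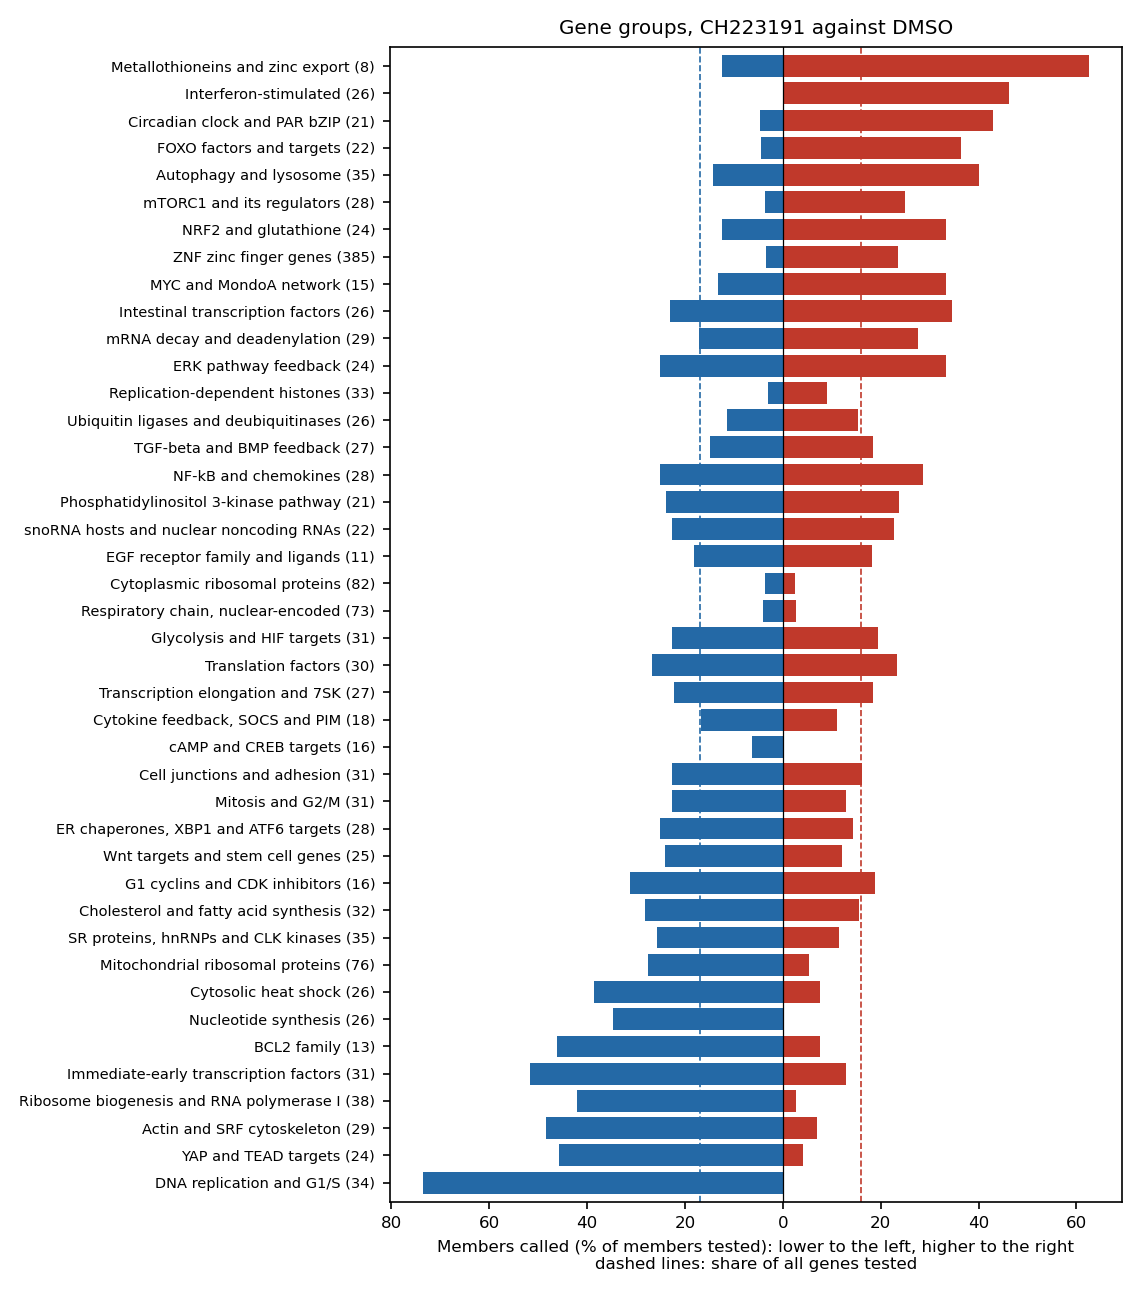
For each gene group drawn, with the number of members tested in brackets, bars give the share of members called lower (blue, left) and higher (red, right), and dashed lines the same shares over all genes tested. The p53 targets, the reference lists, the cell type markers and the groups chosen after their values were seen are not drawn. DNA replication genes reach furthest to the left at 73.5%, and metallothioneins and zinc exporters furthest to the right at 62.5%.

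YAP and TEAD targets lay on the lower side. YAP is a coactivator that enters the nucleus when cells are spread or growing and acts through the TEAD factors on genes such as CYR61, CTGF and ANKRD1. Of 24 tested members 11 fell and 1 rose (0 without CH 1), with a median of -0.14. Beside CYR61 and CTGF, ANKRD1, an ankyrin repeat protein, read 12.2, 12.9 and 12.3 CPM in DMSO and 7.52, 7.89 and 8.05 CPM with CH223191 (-0.67, adjusted p = 2.2e-07). F3, the coagulation factor receptor (-0.39), and the YAP inhibitors LATS2 (-0.35) and AMOTL2 (-0.27) fell as well. The promoters of CTGF and ANKRD1 are shown because they carry the TEAD core word GGAATG more than once. They are the 250 bases before the RefSeq start on GRCh38.p14, written 5′ to 3′ on the gene's own strand, with matches on either strand in capitals.
CTGF, chr6:131951373-131951622, minus strand: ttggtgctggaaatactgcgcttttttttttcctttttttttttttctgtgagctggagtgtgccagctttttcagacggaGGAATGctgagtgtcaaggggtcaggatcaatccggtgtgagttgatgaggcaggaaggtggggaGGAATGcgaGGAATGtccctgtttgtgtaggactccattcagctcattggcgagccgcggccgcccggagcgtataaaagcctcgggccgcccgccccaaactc
ANKRD1, chr10:90921088-90921337, minus strand: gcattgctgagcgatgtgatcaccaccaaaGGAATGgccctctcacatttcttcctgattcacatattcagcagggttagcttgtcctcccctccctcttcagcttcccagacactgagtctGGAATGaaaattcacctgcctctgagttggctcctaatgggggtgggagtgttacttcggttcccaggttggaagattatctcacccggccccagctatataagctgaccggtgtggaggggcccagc
CTGF held 3 matches, at -169, -104 and -95 from the start, and ANKRD1 held 2, at -220 and -128. Of the 17 group members with a promoter entry 9 (52.9%) held the word, against 13.2% of the 10614 tested genes with an entry and 11.9% of all 35116 RefSeq promoter windows. Among genes called at least 1.5-fold lower, 15 of 64 (23.4%) held it, and among those at least 1.5-fold higher, 39 of 234 (16.7%). Reference genes were not set aside here. Words for other factors were looked for too. TGATGNAA, a word for ATF4 sites, was in 20 of the 234 (8.55%) and 3 of the 64 (4.69%), against 2.28% of tested genes. In the same order, the AP-1 word TGACTCA had 8.12%, 7.81% and 4.2%. The FOX word GTAAACA had 7.69%, 6.25% and 3.13%, and the AHR word TNGCGTG 5.98%, 6.25% and 7.9%. Since the group was listed as TEAD targets, its share describes the list and not the response. A match is a description of the letters and no evidence that the factor bound.

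Actin and immediate-early genes, both classical outputs of serum response factor (SRF), also leaned lower. SRF binds the CArG box and is switched on by growth factor signalling and by depletion of free actin. Of 29 actin and SRF cytoskeleton genes 14 fell and 2 rose, with a median of -0.14. Of the 29, 22 lay at 100 CPM or more, where 32.7% of all genes were called lower, against 48.3% in the group. VCL, the focal adhesion protein vinculin, read 506, 543 and 538 CPM in DMSO and 443, 434 and 404 CPM with CH223191 (-0.31), and ZYX, zyxin, had -0.31. CNN2, a calponin (-0.38), PDLIM5, a Z-line scaffold (-0.38), and RND3, which loosens actin stress fibres (-0.39), fell beside ACTG1 and ACTB.

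Of 31 immediate-early genes, which growth signals induce within minutes, 16 fell and 4 rose, with a median of -0.18. The count that rose was 7 with library totals alone, and 2 without CH 1, DMSO 1 or DMSO 3. FOSL1, an AP-1 subunit, read 56.2, 51.2 and 52.5 CPM in DMSO and 34.7, 35.5 and 33.6 CPM with CH223191 (-0.62 ± 0.051 SE, adjusted p = 5.1e-12). CSRNP1, a nuclear protein first known as axin-induced, read 20, 18.2 and 19.3 CPM in DMSO and 10.4, 11.5 and 11.2 CPM with CH223191 (-0.8). EGR1, the early growth response factor, read 120, 115 and 115 CPM in DMSO and 91.5, 91.2 and 79.8 CPM with CH223191 (-0.41), and all 3 CH libraries lay below DMSO. IER3, an early survival gene (-0.46), MAFK, a small MAF factor (-0.51), KLF6, a Krüppel-like factor (-0.36), and FOS (-0.65) fell too. The promoters of EGR1 and ACTG1 are shown because both hold CArG boxes, in capitals, and both genes fell.
EGR1, chr5:138465229-138465478, plus strand: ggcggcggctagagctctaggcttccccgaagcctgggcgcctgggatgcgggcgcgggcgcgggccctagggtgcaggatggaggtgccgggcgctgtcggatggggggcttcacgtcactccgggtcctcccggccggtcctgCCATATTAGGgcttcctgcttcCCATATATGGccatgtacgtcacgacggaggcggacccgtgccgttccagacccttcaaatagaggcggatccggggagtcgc
ACTG1, chr17:81512800-81513049, minus strand: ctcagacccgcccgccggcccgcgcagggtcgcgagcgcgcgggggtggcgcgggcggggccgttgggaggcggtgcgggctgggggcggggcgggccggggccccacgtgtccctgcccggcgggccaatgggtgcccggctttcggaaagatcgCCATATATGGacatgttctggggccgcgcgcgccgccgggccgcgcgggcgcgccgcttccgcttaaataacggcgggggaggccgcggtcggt
EGR1 held 2 boxes, at -105 and -83, and ACTG1 held 1, at -94. Of 25 actin group members with a promoter entry 8 (32%) held a CArG box, as did 3 of 23 immediate-early members (13%), against 1.48% of tested genes with an entry. Since both groups were listed as outputs of SRF, their shares describe the lists and not the response. Among all genes called lower the share was 1.38%, near the background.

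Growth factor feedback genes did not lean one way. ERK, the last kinase of the RAS pathway, induces its own inhibitors and the ETV factors. Of 24 members 8 rose and 6 fell, with a median of -0.01, and the count that rose was 4 without CH 1 or CH 2 and 5 without DMSO 3. ETV5 read 33.6, 34.5 and 33.5 CPM in DMSO and 58.4, 60.7 and 56.8 CPM with CH223191 (0.79, adjusted p = 5.2e-16), and ETV1 rose by 0.68. In the opposite direction EPHA2, an ephrin receptor, read 194, 192 and 189 CPM in DMSO and 136, 134 and 127 CPM with CH223191 (-0.53), and the phosphatases DUSP6 (-0.3) and DUSP7 (-0.25) and the cyclin gene CCND1 (-0.25) fell. Of the EGF receptor family, the ligands AREG (-0.63) and TGFA (-0.17) fell and the receptor ERBB3 rose (0.31). The ligand HBEGF was called higher (0.29), and its call ended without CH 1, CH 3 or DMSO 3 (highest adjusted p = 0.17).

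DNA replication genes showed the most one-sided pattern of the larger groups. These genes, among them the MCM helicase, its loaders and the histone chaperones of the fork, are induced by E2F factors at the start of S phase. Of 34 members 25 fell and 0 rose by edgeR's quasi-likelihood test, with a median of -0.18, and DESeq2 called 24 lower and 0 higher. FEN1, the flap endonuclease, read 165, 158 and 163 CPM in DMSO and 118, 121 and 122 CPM with CH223191 (-0.43 ± 0.0352 SE, adjusted p = 4.8e-12). CHAF1A, a subunit of chromatin assembly factor 1, read 104, 103 and 99.3 CPM in DMSO and 77.2, 75.2 and 72.9 CPM with CH223191 (-0.44). In both genes the groups lay clearly apart. UHRF1, which maintains DNA methylation (-0.39), MCM10 (-0.43), ORC6, an origin recognition subunit (-0.41), and the loader CDC6 (-0.29) fell as well. An E2F word (TTTGGCGC, TTTCGCGC, TTTCCCGC or TTTGCCGC, on either strand) was found in the promoters of 14 of 29 members with an entry (48.3%), against 5.63% of tested genes with an entry. Among all genes called lower the share was 7.06%, and among those at least 1.5-fold lower 4.69%. Since these genes are known E2F targets, the group's share describes the list and not the response.

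The G1 cyclins CCND3 (-0.43), CCNE2 (-0.45) and CCNE1 (-0.37) and the kinase CDK2 (-0.29) fell, and the inhibitor CDKN1C rose (0.58). In all, 5 of 16 G1 genes fell and 3 rose. Mitotic genes stayed near the background, with 7 of 31 lower and 4 higher, among them the phosphatase CDC25C (0.45) and the cyclin CCNB2 (0.25) on the higher side and the kinase AURKA (-0.2) on the lower. Of 26 nucleotide synthesis genes 9 fell, 6 with library totals alone, and 0 rose, 1 with library totals alone. RRM2, the regulated subunit of ribonucleotide reductase, read 668, 641 and 673 CPM in DMSO and 533, 542 and 545 CPM with CH223191 (-0.29), and CTPS1, CTP synthase, had -0.3. DESeq2 also called 9 lower and 0 higher in this group. Of its 26 genes 17 lay at 100 CPM or more, where 32.7% of all genes were called lower, near the group's 34.6%.

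Ribosome biogenesis genes, which build ribosomal subunits in the nucleolus, fell in 16 of 38 and rose in 1 (0 without CH 1 or DMSO 1), with a median of -0.1. Of the 38, 25 lay at 100 CPM or more, where 32.7% of all genes were called lower, against 42.1% in the group. MRTO4, a ribosome assembly factor, read 146, 132 and 143 CPM in DMSO and 114, 112 and 115 CPM with CH223191 (-0.31), GNL3, nucleostemin, had -0.25 and UTP20, a processome component, -0.34. Mitochondrial ribosomal proteins fell in 21 of 76 and rose in 4. The count that fell was 12 without DMSO 1, and the count that rose was 2 without CH 2 and 1 without DMSO 2. The proteins of the cytoplasmic ribosome moved least, with 2 of 82 higher and 3 lower, a share called of 6.1% against 32.8% of all genes. The count lower was 9 without DMSO 2 and 5 without CH 3, and the count higher was 1 without DMSO 2. Nuclear-encoded respiratory chain genes were alike, with 2 of 73 higher and 3 lower, and 12 lower without DMSO 2 and 7 without CH 3. The count higher was 1 without CH 2, CH 3 or DMSO 3. Both groups had medians within 0.02 of 0 on the log2 scale, and their sign turned under some settings.

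Metallothioneins, small cysteine-rich proteins that hold zinc and copper, stood on the higher side with the zinc exporter. The factor MTF1 induces them through metal response elements when free zinc rises. Of 8 tested genes 5 rose and 1 fell, with a median of 0.5. MT1X read 16.9, 15.4 and 17.9 CPM in DMSO and 29.5, 28.4 and 29.2 CPM with CH223191 (0.8 ± 0.0655 SE, adjusted p = 5.1e-12). MT2A read 128, 112 and 119 CPM in DMSO and 166, 181 and 188 CPM with CH223191 (0.57 ± 0.0422 SE, adjusted p = 3e-13). MT1E (0.62) and MT1F (0.71) rose too, and reads of these closely related genes may not have been fully separated. SLC30A1, which exports zinc from the cell, read 32.9, 31.6 and 34.4 CPM in DMSO and 47, 43.8 and 42.6 CPM with CH223191 (0.43). The member that fell, SLC39A10, imports zinc, and read 45.2, 45 and 45 CPM in DMSO and 26.1, 25.7 and 25.6 CPM with CH223191 (-0.8 ± 0.0535 SE, adjusted p = 1.6e-14). Exporter and importer thus moved in opposite directions, each without overlap between the groups. The promoters of MT1X and MT2A are shown with metal response words in capitals (TGCGCNC or TGCACNC, on either strand; these words can share bases with the E2F words above).
MT1X, chr16:56682220-56682469, plus strand: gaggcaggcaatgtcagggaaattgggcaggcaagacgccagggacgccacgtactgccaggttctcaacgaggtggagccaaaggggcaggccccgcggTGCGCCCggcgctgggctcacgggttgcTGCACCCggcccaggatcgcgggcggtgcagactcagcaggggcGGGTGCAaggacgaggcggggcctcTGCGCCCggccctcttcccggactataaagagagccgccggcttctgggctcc
MT2A, chr16:56608334-56608583, plus strand: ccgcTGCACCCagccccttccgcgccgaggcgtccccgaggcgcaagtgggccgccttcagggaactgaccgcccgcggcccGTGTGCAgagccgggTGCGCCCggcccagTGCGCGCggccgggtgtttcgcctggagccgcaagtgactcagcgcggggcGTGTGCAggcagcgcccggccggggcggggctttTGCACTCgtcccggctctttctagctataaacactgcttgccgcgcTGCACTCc
MT1X held 4 matches and MT2A 7. Such words are common in promoters: 3 of 6 group members with an entry held at least 1 (50%), against 40% of tested genes with an entry.

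Autophagy genes leaned higher. Of 35 members, which include the receptors that deliver cargo to the autophagosome and the lysosomal enzymes, 14 rose and 5 fell, with a median of 0.1. CALCOCO2, a receptor for bacteria and mitochondria also named NDP52, read 65, 61.6 and 63.3 CPM in DMSO and 101, 102 and 108 CPM with CH223191 (0.71 ± 0.0395 SE, adjusted p = 1e-16). NBR1, a receptor for ubiquitinated cargo, read 81.4, 83.2 and 83.2 CPM in DMSO and 113, 115 and 114 CPM with CH223191 (0.46). ULK1, the kinase that starts autophagy, read 17.9, 18.3 and 18.8 CPM in DMSO and 29.4, 27.9 and 26.8 CPM with CH223191 (0.61). In all 3 genes the groups did not overlap. The receptor SQSTM1 (0.26), the ULK1 partner RB1CC1 (0.26) and the membrane protein MAP1LC3B (0.25) rose by less. The count that fell was 2 with library totals alone, and 2, 3, 2 and 1 without CH 1, CH 2, CH 3 and DMSO 1.

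FOXO targets, which insulin signalling keeps low, had 8 of 22 higher and 1 lower (0 without CH 3, 2 without DMSO 2), with a median of 0.08 that was -0.01 without DMSO 1. PDK4, which blocks pyruvate entry into the citrate cycle, read 2.67, 2.17 and 2.09 CPM in DMSO and 5, 4.89 and 4.51 CPM with CH223191 (1.06, adjusted p = 1.3e-07), and SESN3, a sestrin, had 0.44. IRS2, an insulin receptor substrate (0.44), CCNG2 (0.5) and FOXO3 itself (0.23) rose. Of the 22, 0 had a mean of 100 CPM or more. The group's share higher was 36.4%, against 23.3% of all genes at 5 to 20 CPM. In the phosphatidylinositol 3-kinase group 5 of 21 rose and 5 fell. GRB10, an adaptor that restrains the insulin receptor, read 37.4, 35.9 and 36.4 CPM in DMSO and 86.4, 82.1 and 79.5 CPM with CH223191 (1.18 ± 0.0454 SE, adjusted p = 1.5e-21), and the phosphatase PHLPP2 fell (-0.41).

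Of 28 mTORC1 genes 7 rose and 1 fell, with a median of -0.01. The count that fell was 0 without CH 1, DMSO 1 or DMSO 3, 2 without CH 3 and 3 without DMSO 2. The count that rose was 4 without CH 1 and 3 without CH 2. DEPTOR, an inhibitor bound to the mTOR kinase, read 1.18, 1.55 and 1.51 CPM in DMSO and 3.46, 3 and 2.39 CPM with CH223191 (1.07, adjusted p = 2.2e-05). In the network of MYC and MondoA 5 of 15 rose and 2 fell. The arrestin relatives moved apart, ARRDC3 from 6.03, 5.5 and 5.21 CPM to 12.1, 12.6 and 11.7 CPM (1.12) and ARRDC4 at -0.25. The MYC relative MYCL (0.49) and the MYC antagonist MNT (0.26) rose.

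Stress genes of the endoplasmic reticulum and the cytosol did not move together. XBP1 (above), HERPUD1, which takes part in protein disposal from the reticulum, and ERN1, the sensor kinase IRE1, rose. HERPUD1 read 70.1, 74 and 76.3 CPM in DMSO and 107, 98.8 and 97.1 CPM with CH223191 (0.46), and ERN1 had 0.61. Of the 28 members of this group 4 rose and 7 fell, with 4 lower without CH 1 or DMSO 3 and with library totals alone, and DERL1, a channel for misfolded proteins, was among those that fell (-0.2). Cytosolic heat shock genes fell in 10 of 26 and rose in 2, with a median of -0.08. Of the 26, 17 lay at 100 CPM or more, where 32.7% of all genes were called lower, near the group's 38.5%. The count that rose was 0 without CH 1 and 1 without any 1 of the DMSO libraries. CHORDC1, an HSP90 co-chaperone, read 102, 101 and 105 CPM in DMSO and 82.2, 81.6 and 84.9 CPM with CH223191 (-0.3), and HSPA4L (-0.28) and FKBP4, a co-chaperone of steroid receptors (-0.2), fell beside HSPA8. Of the heat shock genes 7 fell with library totals alone.

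Interferon-stimulated genes were called in 1 direction, with 12 of 26 higher and 0 lower by edgeR and 10 higher and 0 lower by DESeq2, and a median of 0.16. Without DMSO 1 or DMSO 2 there was 1 lower. The largest change in the group was a fall of -1.18 that was not called. Of the 26, 2 had a mean of 100 CPM or more. Among all genes at 5 to 20 CPM 23.3% were called higher and 8.43% lower, against 46.2% and 0% in the group. DDX58, the RNA sensor RIG-I, read 13.1, 15.7 and 15.5 CPM in DMSO and 20.9, 19.4 and 20 CPM with CH223191 (0.44, adjusted p = 6.9e-06). IFIT1, an RNA-binding antiviral protein, read 1.45, 1.84 and 2.02 CPM in DMSO and 2.88, 3.32 and 3.4 CPM with CH223191 (0.84), and STAT2, the signal transducer of interferon, had 0.3. These genes drew few reads, and their groups did not overlap. IFIT2 (0.88), IFIT3 (0.43) and SAMD9 (0.29) rose as well.

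Of 28 NF-kB and chemokine genes 8 rose and 7 fell. The neutrophil and lymphocyte chemokines CXCL2 (0.51) and CCL20 (0.66) and the regulator NFKBIZ (0.33) rose, while the cytokine LIF (-0.42), CX3CL1 (-0.28) and CCL2 (-0.96) fell. CCL20 read 9.31, 10.2 and 10.4 CPM in DMSO and 16, 14.6 and 17.1 CPM with CH223191. The count that fell was 3 with library totals alone and 4 without any 1 of CH 1, CH 2, CH 3, DMSO 2 or DMSO 3. PIM1, a survival kinase, fell (-0.53) and SOCS2, a feedback inhibitor of cytokine receptors, rose (0.45).

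Epithelial identity genes changed in part. ID1, a BMP target that blocks DNA binding by helix-loop-helix factors, read 103, 106 and 107 CPM in DMSO and 144, 145 and 149 CPM with CH223191 (0.47 ± 0.0354 SE, adjusted p = 5.5e-13). CDX2, the master factor of intestinal identity, read 123, 120 and 124 CPM in DMSO and 95.2, 96.2 and 92.8 CPM with CH223191 (-0.37 ± 0.0369 SE, adjusted p = 6.2e-10). Both changes were larger than the spread within either group. FOXA1 (0.3) and EHF (0.19) rose, and in all 9 of 26 intestinal factors rose and 6 fell, 3 without CH 1, CH 2 or DMSO 1 and with library totals alone. Among Wnt and stem cell genes, ASCL2, which maintains crypt stem cells, rose (0.32) and LGR5, their surface marker, fell (-0.18). BMP4 read 892, 878 and 878 CPM in DMSO and 711, 686 and 713 CPM with CH223191 (-0.33). Of the junction genes LAMB3, a laminin chain (-0.37), and CLDN1 (-0.28) fell and CLDN7 (0.29) and CLDN12 (0.31) rose.

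Genes of the circadian clock and its PAR bZIP output factors leaned higher, with 9 of 21 up and 1 down (2 without CH 1 or DMSO 3) and a median of 0.1. NR1D2, a repressor of the clock loop, read 84.8, 88.3 and 86.7 CPM in DMSO and 104, 111 and 104 CPM with CH223191 (0.3), and the PAR bZIP factors TEF (0.42) and DBP (0.36) rose. Of the 21, 1 had a mean of 100 CPM or more. The clock group's share higher was 42.9%, against 23.3% of all genes at 5 to 20 CPM. Zinc finger genes named ZNF had 91 of 385 higher (23.6%) and 13 lower (3.38%), with a median of 0.09, and 60 higher without CH 1 and 61 with DESeq2. Of the 385, 8 had a mean of 100 CPM or more. Among all genes at 5 to 20 CPM 23.3% were called higher and 8.43% lower, and the group's share higher was near the first. ZNF516 (0.86) and ZNF362 (0.77) headed the rises, and ZNF143, an activator of small nuclear RNA genes, fell (-0.54). Members of this family share repeats, so their reads may not have been fully separated.

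Single metabolic genes moved further than their groups. VEGFA, the angiogenic growth factor, read 58.3, 58.7 and 58.2 CPM in DMSO and 125, 121 and 119 CPM with CH223191 (1.06 ± 0.0389 SE, adjusted p = 3.2e-22), within a hypoxia and glycolysis group of which 6 of 31 rose and 7 fell. The glucose transporters SLC2A3 (-0.73) and SLC2A1 (-0.25) fell. SREBF1, the master factor of fatty acid synthesis, read 101, 106 and 104 CPM in DMSO and 143, 141 and 132 CPM with CH223191 (0.42), while the cholesterol enzymes DHCR7 (-0.23) and MVD (-0.34) fell. In that group 5 of 32 rose and 9 fell. Of 24 NRF2 and glutathione genes 8 rose and 3 fell, among them GCLC, which limits glutathione synthesis (0.29), and HMOX1, haem oxygenase (0.51), on the higher side.

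Genes of cell death split. Of 25 tested genes listed as p53 targets 9 rose and 7 fell (5 with library totals alone), with a median of 0.01 and a range of -0.47 to 1.34. Among them the pro-apoptotic genes BBC3 (0.7) and PMAIP1 (0.39) rose, and the kinase gene PLK2 (-0.47) and the exonuclease gene AEN (-0.43) fell. In the BCL2 family 6 of 13 fell and 1 rose, with 3 lower without CH 2, and the survival gene MCL1 read 229, 225 and 233 CPM in DMSO and 197, 201 and 202 CPM with CH223191 (-0.2). Among splicing genes SRSF2 (-0.36), the kinases CLK3 (-0.48) and CLK1 (-0.41) and SRSF11 (-0.28) fell, and CIRBP, a cold-inducible RNA-binding protein, read 104, 97.9 and 100 CPM in DMSO and 140, 133 and 149 CPM with CH223191 (0.48). PNRC1, a decapping cofactor (0.68), and the noncoding snoRNA host GAS5 (0.44) rose.

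The same CH libraries were compared with the TCDD and kynurenine groups in the same fit. Since the 3 comparisons share the CH libraries, agreement between them is not independent evidence, and the values are given side by side. Against TCDD 5052 genes were called (37.1%), 2463 higher (18.1%) and 2589 lower (19%). Against kynurenine 4495 were called (33%), 2228 higher (16.4%) and 2267 lower (16.6%). Against DMSO, TCDD and kynurenine alike, 2805 genes were called in the same direction (20.6% of genes tested), 1382 higher (10.1%) and 1423 lower (10.4%). ULBP1 averaged 24.4 CPM after CH223191, 6.17 in the vehicle, 5.73 after TCDD and 5.63 after kynurenine. CYR61 averaged 59.8, 142, 140 and 126 CPM in the same order, and EDN1 2.12, 5.17, 4.31 and 5.07 CPM. For these genes the CH group was the one that stood apart.

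**Figure D5:**
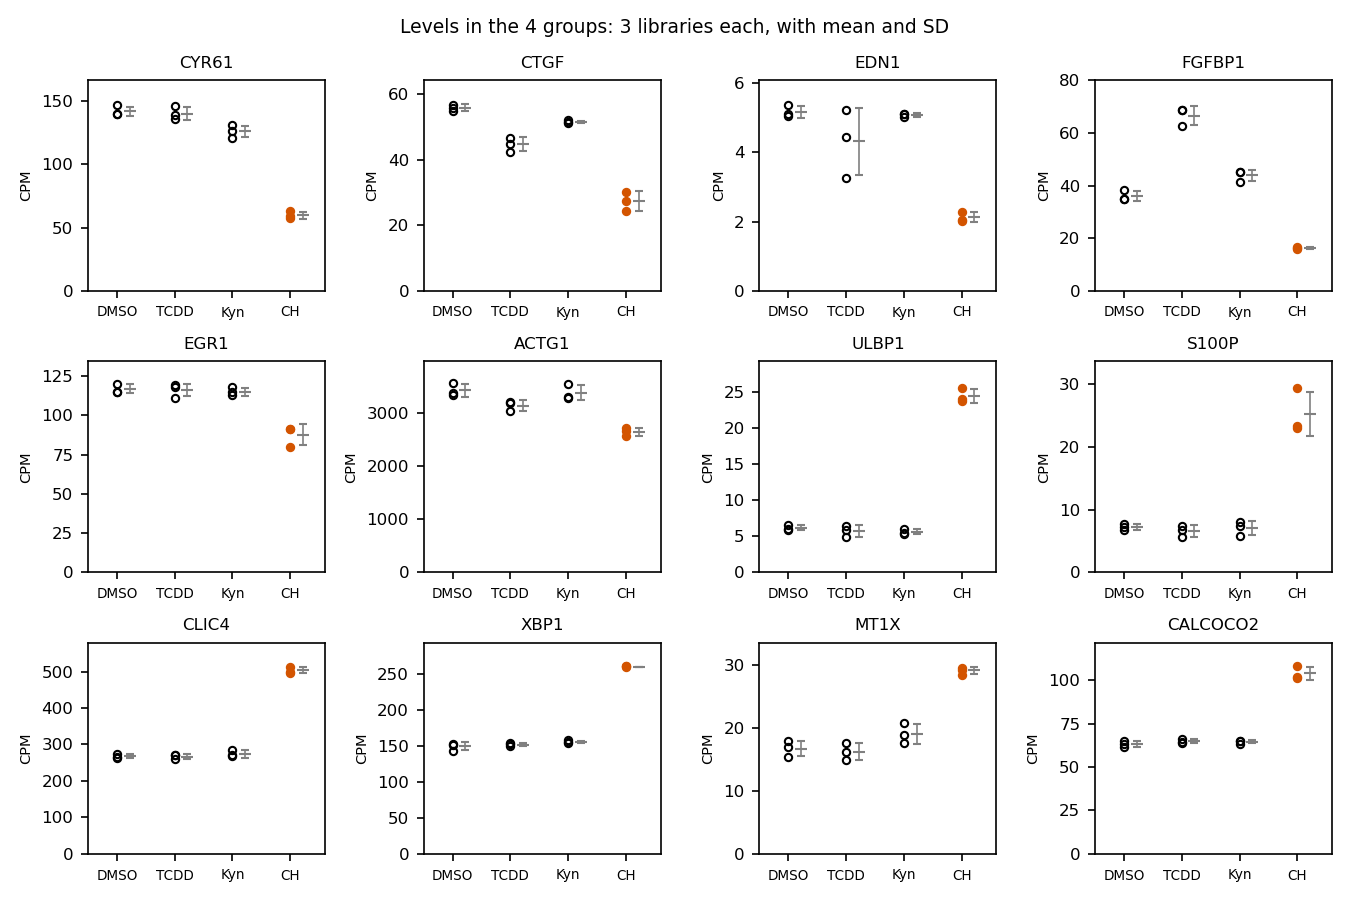
CPM of 12 genes in the 4 groups, with 1 point per library and the mean and SD beside it (n = 3; Kyn is kynurenine and CH is CH223191). In all 12 panels the CH libraries lie outside the range of the other 9 libraries; FGFBP1 averages 36 CPM in DMSO and 66.6 CPM with TCDD.

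Other genes depended on the group taken as the reference. ACTB averaged 3980 CPM with TCDD and 4030 CPM with CH223191 (log2 fold change 0.02, adjusted p = 0.71), so its fall against DMSO was not found against TCDD. ANKRD1 (-0.23, adjusted p = 0.052), CCND1 (-0.04, adjusted p = 0.31), ZYX (-0.07, adjusted p = 0.21) and DGCR11 (-0.27, adjusted p = 0.37) did not pass against TCDD either, and CCL2 did not pass against kynurenine (-0.48, adjusted p = 0.053). FGFBP1 averaged 66.6 CPM with TCDD and 43.9 CPM with kynurenine, both above its 36 CPM in DMSO, and its log2 fold change with CH223191 was -2.04 against TCDD and -1.43 against kynurenine. CDX2 averaged 94.7 CPM after CH223191, 122 in the vehicle, 162 after TCDD and 112 after kynurenine. Of the YAP and TEAD targets 7 of 24 were called lower against each of the 3 groups, of the actin group 7 of 29, of the immediate-early group 12 of 31 and of the replication group 17 of 34. Autophagy genes were called higher against each of the 3 groups in 13 of 35, and metallothioneins and zinc exporters in 5 of 8.

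The reference lists give the scale of the programmes set aside. Of 22 AHR targets 14 fell and 2 rose, with a median of -0.33, and of 25 ATF4 response genes 20 rose and 3 fell, with a median of 1. Aminoacyl-tRNA synthetases rose in 13 of 20 and amino acid transport and synthesis genes in 17 of 20. Of their 87 tested members 52 rose and 20 fell in this comparison. Without CH 1, CH 2, DMSO 1 or DMSO 2 there was 1 AHR target higher, and without CH 2 there was 1 ATF4 response gene lower.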

How the data were processed

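Polyadenylated RNA of DLD1 cells was sequenced in 12 libraries, and the authors deposited whole-number counts of reads for each gene symbol, with no normalization. Trim Galore, STAR 2.7.2b, SAMtools 1.9, HTSeq and hg38 are named in the submitters' processing notes. The strand setting is not given in the sources used here, so overlapping and antisense genes may share reads. Rows that name no gene were dropped. Genes passed filterByExpr (minimum count 10), libraries were scaled by TMM, and 1 model with a coefficient per group was fitted to all 12 libraries with edgeR 4.0.16 (limma 3.58.1, R 4.3.3; quasi-likelihood test, Benjamini-Hochberg adjustment over all genes tested). DESeq2 1.42.0 was an alternative. Every adjusted p in the text is edgeR's unless another tool is named.

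Named genes were the 16 largest called rises and falls outside the reference lists whose groups did not overlap and whose mean reached 1 CPM, the 8 largest gains and losses in CPM, and at most 6 called members of each list by smallest p; some of them are not reported here. The members and lists were chosen with earlier results of these data known. On simulated counts for 13496 genes, changes of 0.2, 0.4, 0.8 and 1.6 (log2) were planted in 50 genes each. They were called in 66%, 88%, 100% and 100% of planted genes, and 0.0752% of the 13296 unchanged genes were called. Far fewer genes changed there than the 4470 called in the data. The adjusted threshold is then stricter, so these shares do not give the rates in the data. Gene spans came from GENCODE release 44 and promoters from RefSeq GRCh38.p14. The spread between libraries beyond counting error was 3.22% of a gene's level (edgeR's common coefficient of variation). Counting error is therefore the larger part of the spread for genes with few reads.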

Additional observations from a re-analysis of the deposited data

How the results depend on the processing

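Against 4470 genes called, RLE size factors gave 4468, library totals 4413, upper-quartile factors 4433, no low-count filter 4369 of 20170 genes, a 5 CPM filter 4161, the 6 compared libraries alone 4588 and DESeq2 3629 (1610 higher, 2019 lower). A correction for GC content and transcript length, added after the data were seen, gave 4952. Leaving out 1 library in turn gave 3510 to 4016. Of the 4470 genes, none that was also called under one of these settings turned direction there. Apart from the named genes, those that lost the call were not checked for direction. With at least 5 CPM in 3 libraries, genes changed by at least 1.5-fold numbered 155 higher and 37 lower, since low genes are no longer tested. The test of change beyond 1.2-fold called 519. Same-numbered CH and DMSO libraries did not deviate together (correlations of -0.055, -0.029 and -0.002), so the numbers were not taken to pair the samples, and a fit with a replicate block called 4366 genes. Of 342 named and called genes, 145 passed the test beyond 1.2-fold. Leaving that test aside, 311 passed under every other setting that tested them and 31 lost the call in at least 1. Genes under 1 CPM were called only where changes were large, with a median rise of 1.04 and fall of -1.07 on the log2 scale, so smaller changes there were not detectable at this depth.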

Other observations

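Further gene groups, chosen after their values were seen and so given no test, are given as counts. Genes of the ciliary BBSome and intraflagellar transport, which build the primary cilium, rose in 20 of 41 and fell in 0 by edgeR, with a median log2 fold change of 0.17, and DESeq2 called 17 higher and 0 lower. Their background is 15.9% of tested genes called higher, or 23.3% of genes at 5 to 20 CPM. CLUAP1 (0.48), TTC30A (0.71), TTC30B (0.88), IFT81 (0.45) and BBS2 (0.3) were among the cilium genes that rose. The zinc finger genes named ZKSCAN, ZSCAN or ZFP rose in 16 of 29 and fell in 0 by edgeR, with a median of 0.24, and DESeq2 called 11 higher and 0 lower. ZKSCAN1 (0.35), ZSCAN2 (0.71) and ZFP90 (0.33) rose.

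Of all genes at 100 CPM or more, 32.7% were called lower, and 30 of the 37 proteasome genes and 38 of the 50 nuclear pore and transport genes lie at that level. The shares called lower in these groups, 37.8% and 38%, are near it. Proteasome subunits fell in 14 of 37 and rose in 0 by edgeR, as by DESeq2, with a median of -0.04 and PSMD11 at -0.21. The count that fell was 6 without CH 1, 9 without DMSO 3 and 9 with library totals alone, and without CH 1 there was 1 higher. Nuclear pore genes and nuclear transport receptors fell in 19 of 50 and rose in 1 (0 without CH 2, CH 3, DMSO 1 or DMSO 3), among them NUP160 (-0.25), XPO6 (-0.27) and KPNB1 (-0.18). Of 30 genes of mitochondrial protein import 11 fell and 4 rose, with TOMM6 (-0.45) and TOMM40 (-0.3) lower and TIMM44 (0.31) higher. The count that fell was 7 without DMSO 3.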
